A study of Oryza sativa with 32 samples.

Results

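The late chlorophyll synthesis genes of this report are 6 rice genes, not a complete set, of the steps that turn a magnesium porphyrin into chlorophyll a and chlorophyll b. They were chosen by identifier, as the rows OS01G0279100 (CRD1), OS03G0351200 (DVR), OS04G0678700 (PORA), OS10G0496900 (PORB), OS10G0567400 (CAO1) and OS05G0349700 (YGL1), among 37829 gene rows in the deposited count table. All 6 had enough reads to be tested, among 25766 genes that did. RNA came from panicles, the branched flower heads, of untreated field-grown plants of the variety IR64, taken in the dry season at a stage of 50% flowering. Panicles were collected at dawn, at 3.5, 7 and 10.5 h, at dusk, and at 14, 17.5 and 21 h, with 4 libraries at each of 8 times and 32 in all. Every group shares this genotype, field and stage, and time of day is the only difference between groups that the labels give. Nothing in the labels ties a library to its own plant or plot, and p-values here therefore rest on the spread between libraries, part of which may be technical.

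Chlorophyll is made in plastids from 5-aminolevulinic acid through a chain of tetrapyrroles. CRD1 encodes the cyclase subunit that closes the isocyclic ring and yields divinyl protochlorophyllide, and DVR encodes the reductase that turns the divinyl form into the monovinyl form. PORA and PORB encode protochlorophyllide oxidoreductases, which need light to act and produce chlorophyllide a. CAO1 encodes chlorophyllide a oxygenase, which makes the b form, and YGL1 encodes chlorophyll synthase, which attaches the isoprenoid tail. Protochlorophyllide that accumulates in the dark is toxic once light returns, and the pathway in leaves is known for tight control by light and by the circadian clock.

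Levels are given as CPM, the count of a gene relative to its library total, after TMM scaling, which corrects library totals for a few very abundant transcripts. Library totals ran from 10759241 to 43876782 counts. Since CPM values are not divided by transcript length, levels of different genes are not ranked against each other. In bulk tissue, fewer cells of a type and less RNA per cell cannot be told apart. Across the 4 libraries of a time, 3 libraries correlated least with the others: dawn replicate 4 (mean r = 0.849), 21 h replicate 3 (0.886) and 10.5 h replicate 3 (0.889), against a median of 0.943. Marker genes of floral organs and of green tissue were detected at every time, which fits the panicle label, with summed levels of 944 to 2396 CPM for 5 floral genes. The summed level of 3 pollen MADS-box genes ran from 1.23 to 94.2 CPM over the libraries, and that of 6 tapetum genes from 5.94 to 61.1 CPM. Over the 8 times, where 42.1% of all genes were called, 0 of 3 pollen genes, 3 of 5 tested tapetum genes (UDT1, EAT1 and CYP703A3), 1 of 5 floral genes (MADS14) and the endosperm gene GluA2 were called, and the part of tissue content in the results was not tested. The names of the pollen genes, of 3 of the 4 green-tissue genes and of CRD1 are not in the reference gene table used here and are not checked against it.

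All 6 genes changed over the 8 times by edgeR's quasi-likelihood test with Benjamini-Hochberg adjustment over all genes tested. The background for this test was high, with 42.1% of all genes called. Of the 6 genes, 5 had their highest mean at dawn, 3.5 h or 7 h and their lowest at dusk or 14 h. YGL1 had its highest mean at 17.5 h and its lowest at 3.5 h. Dawn was not a high time for all 5, since DVR had a mean of 11.2 CPM at dawn and 10.8 CPM at 14 h. The highest and lowest time means differed 16.6-fold for CAO1, 13.9-fold for PORA, 10.2-fold for CRD1, 4.44-fold for PORB, 2.88-fold for DVR and 1.71-fold for YGL1. The range of CAO1 was larger than that of 96.6% of all genes tested, whereas that of YGL1 exceeded that of only 40.2%.

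**Figure D1:**
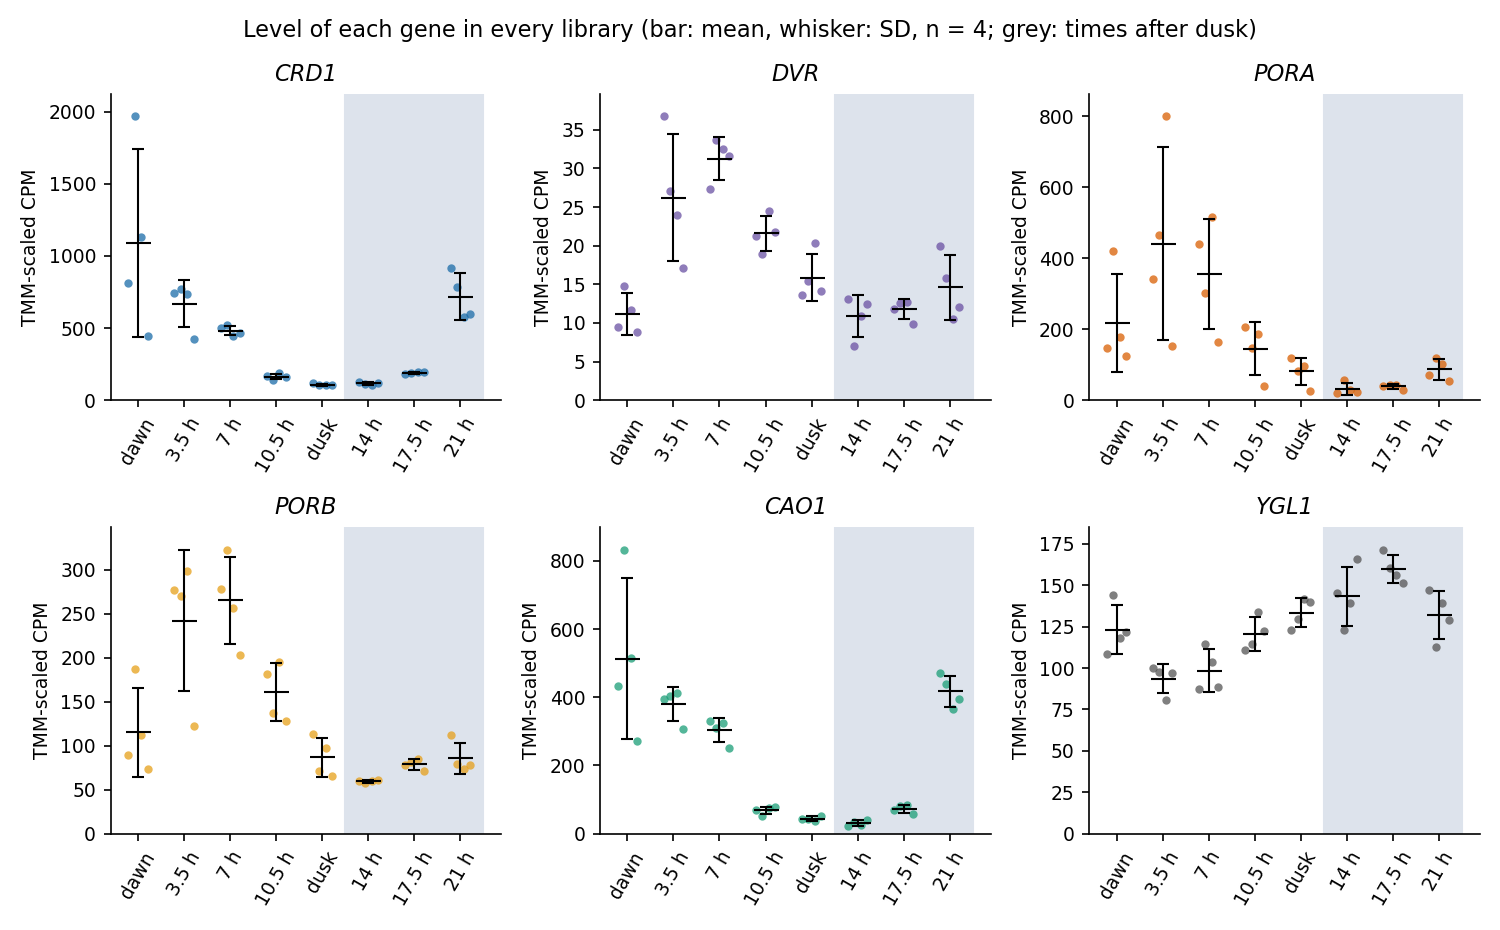
TMM-scaled CPM of the 6 genes at each of the 8 sampling times, with 1 point per library, the mean as a bar and the SD as whiskers (n = 4 each); grey marks the times after dusk, and each panel has its own linear axis from 0. CRD1 and CAO1 are high from 21 h to 7 h, PORA, PORB and DVR are highest at 3.5 or 7 h, and YGL1 is lowest at 3.5 h.

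CRD1, the cyclase subunit, was highest at dawn and lowest at dusk. The 4 dawn libraries had 809, 1970, 1128 and 442 CPM, and the 4 dusk libraries had 118, 103, 102 and 103 CPM. The dawn libraries were widely spread, yet each stood well above every dusk library. At 3.5 h the libraries had 743, 768, 738 and 425 CPM, at 7 h 502, 518, 446 and 465 CPM, and at 10.5 h 168, 141, 185 and 157 CPM. The step from 7 h to 10.5 h thus separated the libraries without overlap. After dusk, CRD1 was at 124, 114, 105 and 120 CPM at 14 h, at 179, 186, 195 and 192 CPM at 17.5 h, and at 917, 782, 574 and 595 CPM at 21 h. The high level at 21 h was reached while the plants were still in darkness.

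CAO1, the oxygenase that forms the b-type pigment, followed almost the same course. Its 4 dawn libraries had 433, 833, 516 and 271 CPM, and its dusk libraries had 42.8, 41.8, 35.7 and 52.6 CPM. The lowest time was 14 h, with 22.7, 35.1, 26.7 and 39.5 CPM. Every dawn library was above every dusk library and every 14 h library. The level at 3.5 h was 396, 404, 413 and 307 CPM, at 7 h 330, 310, 325 and 252 CPM, and at 10.5 h 68.6, 52.1, 74.4 and 77.1 CPM. The 7 h and 10.5 h libraries were separated by a wide gap. During the night CAO1 rose from its 14 h level to 69.1, 79.7, 83.6 and 56.5 CPM at 17.5 h and to 471, 439, 366 and 395 CPM at 21 h. The other rice gene for this enzyme, next to CAO1 on the list of pathway genes, had too few reads to be tested.

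PORA, the first of the pair of light-dependent oxidoreductases, was highest at 3.5 h and varied most between libraries. Its levels were 148, 421, 176 and 124 CPM at dawn, 341, 465, 800 and 154 CPM at 3.5 h, followed by 440, 301, 517 and 165 CPM at 7 h. The dawn, 3.5 h and 7 h libraries overlapped. At 10.5 h it stood at 207, 148, 186 and 39.8 CPM and at dusk at 118, 83.1, 95.5 and 26.5 CPM. At 14 h it was lowest, with 20.1, 55.3, 28.7 and 22.4 CPM, followed by 40.0, 43.8, 42.9 and 29.0 CPM at 17.5 h and 70.9, 119, 102 and 54.0 CPM at 21 h. Every 21 h library was below every dawn library.

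PORB, its paralog, reached its highest mean at 7 h. It had 89.0, 187, 112 and 73.1 CPM at dawn, 278, 270.0, 299 and 123 CPM at 3.5 h, followed by 278, 323, 257 and 203 CPM at 7 h. At 3.5 h, 3 of the 4 libraries lay above every dawn library. At 10.5 h it had 182, 137, 195 and 128 CPM and at dusk 113, 71.6, 97.9 and 65.6 CPM. At 14 h the 4 libraries were within 57.1 to 61.3 CPM, at 17.5 h within 71.0 to 84.8 CPM, and at 21 h within 73.7 to 112 CPM. The night libraries of PORB thus stayed close to its dusk libraries, below every library at 3.5, 7 and 10.5 h.

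DVR, the vinyl reductase, had a morning course close to that of PORB. It was at 9.45, 14.8, 11.6 and 8.79 CPM at dawn, 36.8, 27.1, 23.9 and 17.1 CPM at 3.5 h, followed by 27.4, 33.7, 32.5 and 31.5 CPM at 7 h. Every library at 3.5 h and 7 h was above every dawn library. It stood at 21.2, 19.0, 24.5 and 21.7 CPM at 10.5 h and at 13.6, 15.4, 20.4 and 14.1 CPM at dusk. At night its libraries ranged from 6.98 to 13.1 CPM at 14 h, from 9.91 to 12.7 CPM at 17.5 h and from 10.5 to 19.9 CPM at 21 h.

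YGL1, chlorophyll synthase, was lowest in the morning and highest in the middle of the night. It had 109, 144, 118 and 122 CPM at dawn, 99.8, 97.3, 80.4 and 97.0 CPM at 3.5 h, followed by 87.6, 114, 104 and 88.4 CPM at 7 h. At 10.5 h it had 111, 114, 134 and 123 CPM, and at dusk 123, 130, 142 and 140 CPM. The libraries of a time lay close together. At 14 h it had 145, 123, 139 and 166 CPM, at 17.5 h 171, 160, 156 and 152 CPM, and at 21 h 147, 113, 139 and 129 CPM. All 4 libraries at 17.5 h were above all libraries at 3.5, 7 and 10.5 h and at dusk and dawn.

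Ordered by their means, most neighbouring times of a gene did not differ beyond the spread between libraries. Of 7 neighbouring pairs for each gene, the test was passed by 1 pair for CRD1 and 1 pair for CAO1, and by no pair of the other 4 genes. In both genes that pair was 7 h above 17.5 h, by 1.36 ± 0.26 (SE) on the log2 scale for CRD1 (adjusted p = 0.000446) and by 2.07 ± 0.23 for CAO1 (adjusted p = 2.98e-07). Between these times 16.1% of all genes were called. DVR, PORA, PORB and YGL1 were called there too, YGL1 in the other direction, though the times were not neighbours in their order. Times that were not neighbours in the order also differed, as at 7 h against dawn, where 21.6% of all genes were called. CRD1 was lower at 7 h by -1.17 ± 0.26 (adjusted p = 0.00148) and CAO1 by -0.76 ± 0.23 (adjusted p = 0.0162). DVR and PORB were called higher at 7 h and YGL1 lower, and PORA was not called. Of all 28 pairs of times, CAO1 passed the test in 20, CRD1 in 18, PORA and PORB in 14 each, and DVR and YGL1 in 13 each, where 0 to 25.5% of all genes were called in a pair (median 14.2%).

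A wave of 24 h, with dusk placed at 12 h because the labels give it no hour, was fitted to all 6 genes by edgeR, and all 6 passed the test, against a background of 47.4% of all genes. A single day was sampled, so the wave describes this day. The fitted peak was at 1.28 ± 0.28 h after dawn (SE, 32 libraries) for CRD1 and at 1.62 ± 0.26 h for CAO1. PORA followed at 4.40 ± 0.37 h, PORB at 5.19 ± 0.39 h and DVR at 6.08 ± 0.51 h, and YGL1 peaked at 17.0 ± 0.36 h. The peak-to-trough folds of the fitted waves were 18.0 for CAO1, 14.3 for PORA, 10.0 for CRD1, 4.19 for PORB, 2.70 for DVR and 1.65 for YGL1. The order of the peaks was therefore not the order of the enzymes in the pathway. CAO1, which acts late, peaked with CRD1, and DVR, which acts early among these steps, peaked hours after CRD1, with a peak near that of PORB; the order of DVR and PORB was not tested. The wave accounted for 89.7% of the variation in log2 level between libraries for CAO1 and for 88.9% for CRD1, but for 59.98% for DVR, whose 8 time means accounted for 80.4%.

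**Figure D2:**
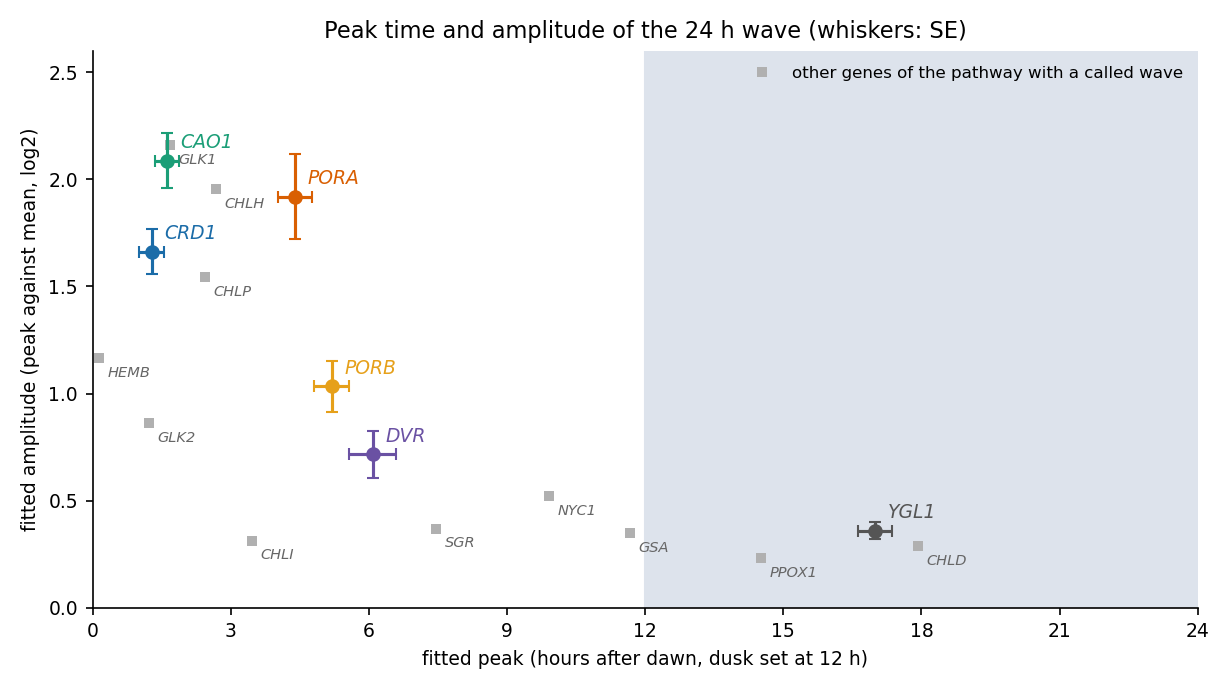
Fitted peak time in hours after dawn against fitted amplitude on the log2 scale (peak against mean) for the 6 genes, with SE whiskers, and for other named genes of chlorophyll synthesis, breakdown and regulation whose wave was called (grey squares, no whiskers); the grey field runs from dusk, set at 12 h, to 24 h. CRD1 and CAO1 lie beside GLK1, CHLP and CHLH shortly after dawn, PORA, PORB and DVR lie between 4.40 and 6.08 h, and YGL1 is alone among the 6 in the night, at 17.0 h.

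The comparison of night with day asked how the genes differed between darkness and light away from both transitions. It set the 12 libraries at 14, 17.5 and 21 h against the 12 libraries at 3.5, 7 and 10.5 h, and called 26.4% of all genes, 12.3% higher and 14.0% lower at night. When libraries were scaled by their totals alone, the share of higher genes among those called moved from 46.7% to 67.3%. All 6 genes were called, 5 lower and 1 higher at night, under both scalings. The median difference of the 6 was -1.05 on the log2 scale, against -0.02 for all genes.

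PORA differed most. Its night libraries ran from 20.1 to 119 CPM with a median of 43.3, and its day libraries from 39.8 to 799.8 CPM with a median of 254. PORA was lower at night by a log2 difference of -2.58 ± 0.31 (SE, adjusted p = 3.61e-07), although the lowest day library fell inside the night range. PORB ran from 57.1 to 112 CPM at night with a median of 75.7, and from 123 to 323 CPM by day with a median of 230.2, without overlap. Its difference was -1.56 ± 0.15 (adjusted p = 5.29e-09). DVR was between 6.98 and 19.9 CPM at night with a median of 12.2, and between 17.1 and 36.8 CPM by day with a median of 25.8. Its difference was -1.08 ± 0.13 (adjusted p = 1.97e-07), with a slight overlap of the groups.

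CAO1 and CRD1 were called lower at night as well, but their 21 h libraries lay within or above the range of their day libraries. CAO1 had a median of 74.4 CPM at night, between 22.7 and 471, and of 309 CPM by day, between 52.1 and 413. Its difference was -1.02 ± 0.13 (adjusted p = 9.46e-07). CRD1 had a median of 189 CPM at night, between 105 and 917, and of 456 CPM by day, between 141 and 768, and its difference was -0.59 ± 0.15 (adjusted p = 0.00389). The day and night ranges of both genes overlapped. YGL1 was higher at night, with a median of 146 CPM between 113 and 171, against 102 CPM between 80.4 and 134 by day. Its difference was 0.48 ± 0.06 (adjusted p = 1.70e-06).

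**Figure D3:**
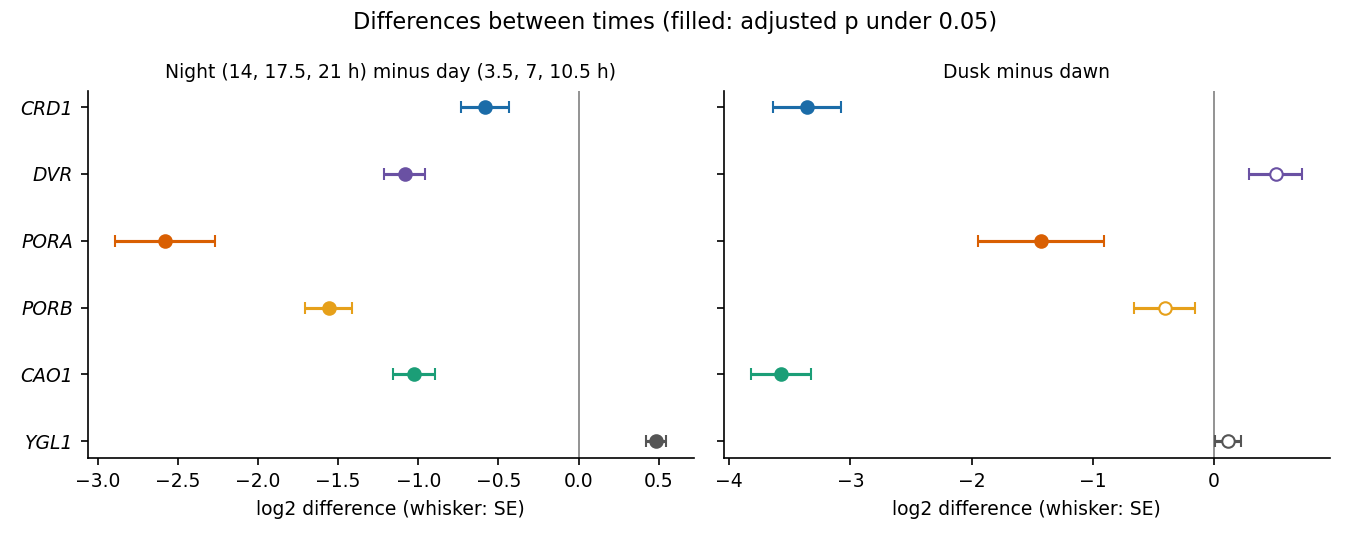
Log2 differences of the 6 genes between night and day (left) and between dusk and dawn (right), with SE whiskers; filled points have an adjusted p under 0.05 and open points do not. Night levels are lower for 5 genes, most for PORA at -2.58, and dusk levels are lower by -3.35 for CRD1 and -3.57 for CAO1, while the DVR, PORB and YGL1 points are open.

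Dusk against dawn compares the labelled transitions between light and darkness, and called 22.1% of all genes, 11.5% higher and 10.6% lower at dusk. Scaling by library totals moved the share of higher genes among those called from 51.9% to 63.9%. Of the 6 genes, 3 were called, all lower at dusk. CAO1 was lower by a log2 difference of -3.57 ± 0.25 (SE, n = 4 and 4, adjusted p = 1.45e-11) and CRD1 by -3.35 ± 0.28 (adjusted p = 4.67e-10). PORA was lower by -1.43 ± 0.52 with an adjusted p of 0.0483, just past the threshold. That call was lost in 21 of 39 alternatives, among them without dawn replicate 2, when the difference was -0.93 and the adjusted p 0.232, and without dusk replicate 4 (-1.15, adjusted p = 0.134). DVR differed by 0.51 ± 0.22 (adjusted p = 0.0961), PORB by -0.41 ± 0.25 (adjusted p = 0.273) and YGL1 by 0.12 ± 0.11 (adjusted p = 0.519), none of which passed the test.

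Steps between neighbouring times placed the rises and falls. From dawn to 3.5 h, 11.5% of all genes were called, 5.47% higher and 6.04% lower, and 3 of the 6 genes were among them. Scaling by library totals moved the share of higher genes among those called from 47.5% to 30.1%. DVR rose by 1.23 ± 0.22 on the log2 scale (adjusted p = 0.000413), PORB rose by 1.07 ± 0.25 (adjusted p = 0.00580) and YGL1 fell by 0.40 on that scale (SE 0.11, adjusted p = 0.0200). The other genes gave -0.70 ± 0.26 for CRD1, -0.43 ± 0.23 for CAO1 and 1.02 ± 0.51 for PORA, with adjusted p-values of 0.0767, 0.220 and 0.205. Without dawn replicate 4, the library that correlated least with the others of its time, CRD1 was at -0.96 (adjusted p = 0.0027) and CAO1 at -0.65 (adjusted p = 0.0344). In that setting 5 of the 6 genes were called, against 3466 of all 26215 genes tested. The YGL1 call was lost without dawn replicate 2 (-0.33, adjusted p = 0.0603) and without 3.5 h replicate 3 (-0.36). From 3.5 to 7 h none of the 6 genes was called by edgeR or DESeq2, where edgeR called 8.62% of all genes. In edgeR 0 of the 6 had an unadjusted p under 0.05, against 5694 of all 25766 genes tested. CRD1, the nearest (0.0785), gave -0.47 ± 0.26.

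The afternoon brought the fall of CRD1 and CAO1. From 7 to 10.5 h, 4.15% of all genes were called, 1.81% higher and 2.34% lower. CAO1 fell by 2.16 on the log2 scale (SE 0.23, adjusted p = 5.10e-07) and CRD1 fell by 1.57 (SE 0.26, adjusted p = 0.000276). PORA gave -1.29 ± 0.52, PORB -0.72 ± 0.25, DVR -0.53 ± 0.22 and YGL1 0.29 ± 0.11, with adjusted p-values from 0.119 to 0.207. From 10.5 h to dusk and from dusk to 14 h none of the 6 genes was called by edgeR, against backgrounds of 0.186% and 0.625% of all genes. At an unadjusted p under 0.05 they numbered 4 in the first of these steps (CRD1, DVR, PORB and CAO1, with negative differences), against 11.4% of all genes, and 4 in the next (DVR, PORA, PORB and CAO1, with negative differences), against 9.16%. DESeq2 called PORB in the first (-0.90, adjusted p = 0.0467) and none of the 6 in the next.

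CAO1 and CRD1 rose again in darkness. From 14 to 17.5 h, where 1.37% of all genes were called, 0.862% higher and 0.512% lower, CAO1 rose by 1.22 ± 0.23 on the log2 scale (adjusted p = 0.00466). The share of higher genes among those called was 62.7%, and 74.6% in limma on the CPM. CRD1 gave 0.70 ± 0.26 (adjusted p = 0.151), with every 17.5 h library above every 14 h library, and it was called (adjusted p = 0.0470) when the 3 libraries of lowest correlation were left out. From 17.5 to 21 h, where 8.57% of all genes were called, 5.04% higher and 3.53% lower, CAO1 rose by 2.53 ± 0.24 (adjusted p = 2.18e-08) and CRD1 by 1.93 ± 0.27 (adjusted p = 1.04e-05). Scaling by library totals turned the majority of all calls in this step, from 58.8% higher to 33.3% higher. In the same step PORA gave 1.15 ± 0.52 (adjusted p = 0.173), DVR 0.32 ± 0.22 (0.389) and PORB 0.12 ± 0.25 (0.798). YGL1 gave -0.28 ± 0.11 (adjusted p = 0.127).

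The dawn libraries opened the series and the 21 h libraries closed it. None of the 6 genes differed between them in edgeR, which called 0% of all genes here, though 1778 genes had an unadjusted p under 0.05 and DESeq2 called 27 genes, none of them among the 6. PORA gave 1.33 ± 0.52 higher at dawn on the log2 scale (unadjusted p = 0.0161), CRD1 0.60 ± 0.26 (unadjusted p = 0.0272) and CAO1 0.30 ± 0.22 (unadjusted p = 0.197). With a spread of this size these values do not show that the levels were alike.

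The scaling of libraries cancels in the ratio of a pair of genes within a library, apart from the pseudocount of 0.5 CPM, and ratios test whether the genes changed unequally. Of 15 pairs, 12 passed between night and day by a two-sided permutation test with 100000 resamples, adjusted over the 15 pairs. The share among pairs of all genes was not computed. The test shuffled single libraries, so libraries of the same time counted as independent of each other. Ratios also differed between times of the night, as for PORA to PORB, with means of 0.49 at 17.5 h and 1.05 at 21 h. The p-values of this test may therefore be too small. The mean log2 ratio of PORA to PORB was -0.69 ± 0.70 (SD, n = 12) at night and 0.22 ± 0.78 by day, a difference of -0.91 ± 0.30 (SE, adjusted p = 0.0126). PORA thus fell further at night than its paralog. The ratio of CRD1 to CAO1 was 1.35 ± 0.55 at night and 0.91 ± 0.32 by day, a difference of 0.45 ± 0.18 (adjusted p = 0.0346). The 3 pairs that did not pass were CRD1 to DVR (0.48 ± 0.36), DVR to CAO1 (-0.04 ± 0.52) and PORB to CAO1 (-0.50 ± 0.50).

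Between dusk and dawn, 10 of the 15 pairs passed an exact two-sided permutation test, all at 0.0286. That is the smallest p that 4 against 4 libraries allow, and it gave an adjusted p of 0.0429. Most of the passing pairs held CRD1 or CAO1, and the share among pairs of all genes was not computed. The count was not stable when single libraries were left out. With no smaller p available, pairs pass the adjustment only when many of the 15 reach this p together. CRD1 to PORB changed by -2.80 ± 0.24 and CAO1 to YGL1 by -3.57 ± 0.31 on the log2 scale, and the libraries of dusk and dawn did not overlap for either ratio. PORB to CAO1 changed by 3.11 ± 0.28 and DVR to CAO1 by 3.95 ± 0.29, again without overlap. The cyclase and oxygenase genes therefore fell between dawn and dusk relative to DVR and PORB. CRD1 to CAO1 differed by 0.31 ± 0.17 (adjusted p = 0.122) and did not pass.

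The ratio of PORA to PORB was followed in every library. Only its change is read, since the ratio depends on transcript lengths that are not used here. It was 1.80 ± 0.30 (SD, n = 4) at dawn, 1.72 ± 0.68 at 3.5 h and 1.33 ± 0.56 at 7 h, 0.87 ± 0.38 at 10.5 h and 0.90 ± 0.34 at dusk, and 0.54 ± 0.29 at 14 h, 0.49 ± 0.06 at 17.5 h and 1.05 ± 0.45 at 21 h. Every dawn library was above every library at 10.5 h, dusk, 14 h, 17.5 h and 21 h. The replicate numbers also differed. Replicate 4 had the lowest PORA level at 7 of 8 times and the lowest PORB level at 6 of 8 times, while it was lowest for CRD1 at 2 times. The labels do not say what a replicate number marks. How the authors counted reads that match both paralogs is not given in the sources used here, so reads shared by PORA and PORB could be split between them.

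**Figure D4:**
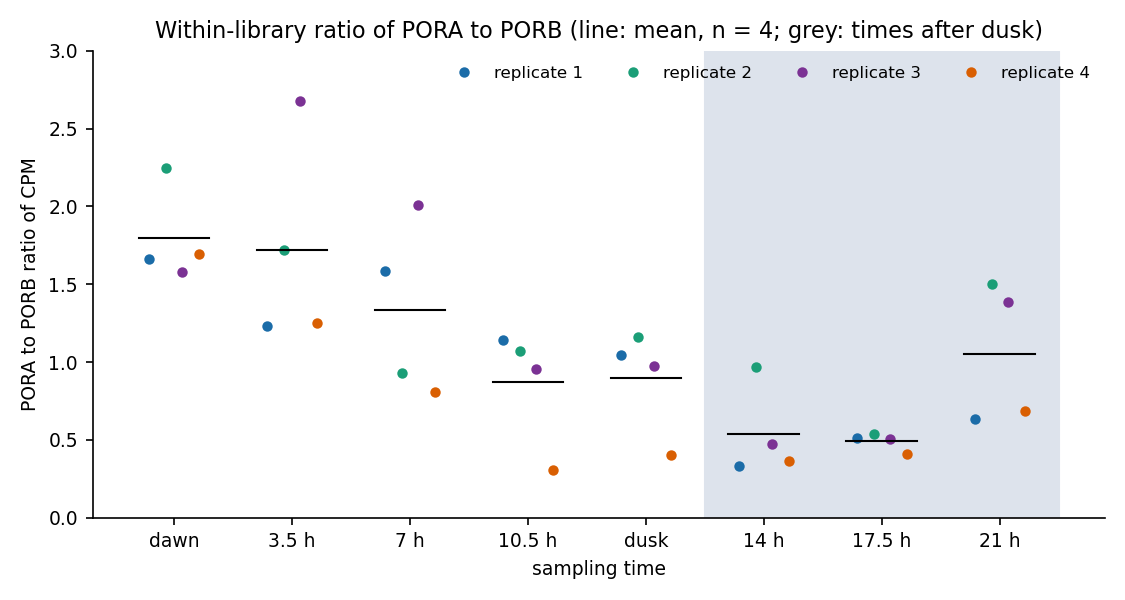
Ratio of PORA to PORB CPM within each library at the 8 times, with 1 point per library coloured by replicate number and a line at the mean (n = 4); grey marks the times after dusk. The mean declines from 1.80 at dawn to 0.49 at 17.5 h, and replicate 4 is lowest at 7, 10.5 and 17.5 h and at dusk.

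Libraries of the same time differed in their content of green-tissue transcripts, and some of the 6 genes moved with it, as CRD1, PORB and DVR did. The 4 green-tissue genes are RCA, which encodes rubisco activase, and 3 genes listed as rubisco small subunits. Their summed level ran from 5944 to 29365 CPM at dawn, from 10382 to 21689 at 3.5 h, from 7448 to 13111 at 7 h, from 6790 to 11478 at 10.5 h, from 5038 to 9793 at dusk, from 5910 to 14015 at 14 h, from 5465 to 8399 at 17.5 h and from 8653 to 20374 at 21 h. None was at 0. RCA was called over the 8 times and none of the 3 small subunit genes was, where 42.1% of all genes were called. The 24 h wave, which 47.4% of all genes passed in edgeR, was called for 3 of the 4 genes. Adjusted p-values of the small subunit genes in that test were 0.0599, 0.0441 and 0.0277, so these genes are not shown to be constant. The summed level was thus higher at the times when CRD1 and CAO1 were high, and its part in the time course was not tested. RCA itself had means of 187 CPM at 10.5 h and 5515 CPM at 21 h. Means of the small subunit genes were 2755, 3922.5 and 1454 CPM at 10.5 h and 2381, 4037 and 1635.5 CPM at 21 h. The rise of the sum between these times lay mostly in RCA, and whether it marks more green tissue was not tested.

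Within times, each value was set against the mean of its own time over 32 libraries. The mean log2 level of the 6 genes followed that of the green-tissue genes, with Pearson's r of 0.78 and Spearman's rho of 0.70, and r was 0.64 without dawn replicates 2 and 4, the libraries farthest from the median. For the single genes, r was 0.85 for CRD1 (rho = 0.75, permutation p = 2e-05, adjusted p = 6e-05 over these 6 relations), 0.81 for PORB (rho = 0.79, permutation p = 1e-05, adjusted p = 6e-05) and 0.64 for DVR (rho = 0.58, permutation p = 0.00149, adjusted p = 0.00298). It was 0.59 for CAO1 (rho = 0.38, permutation p for r = 0.0257, adjusted p = 0.0309), where r fell to 0.24 without dawn replicates 2 and 4, so that this relation rests on those libraries. For PORA r was 0.43 (rho = 0.41, permutation p = 0.0258, adjusted p = 0.0309) and 0.31 without those libraries. YGL1 had an r of 0.13 (rho = 0.08, permutation p = 0.568). With the 3 pollen genes, the r of the 6 genes' mean was 0.20, with the tapetum genes 0.12, with the floral organ genes 0.18 and with the library total 0.12.

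**Figure D5:**
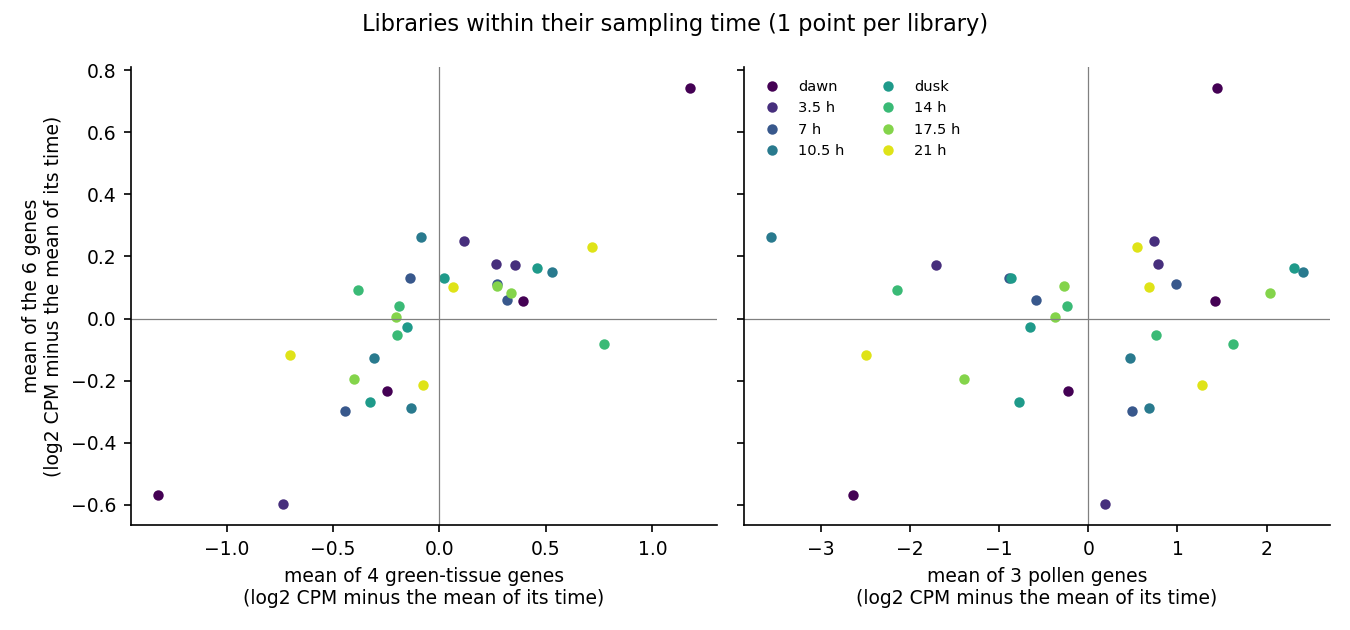
Mean log2 CPM of the 6 genes against the mean of the 4 green-tissue genes (left) and of the 3 pollen genes (right), each minus the mean of its sampling time, with 1 point per library (32) coloured by time. Points rise together on the left (r = 0.78), with dawn replicates 2 and 4 farthest right and left, and are scattered on the right (r = 0.20).

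Among the 6 genes themselves, 15 pairs were compared within times. CRD1 and PORB moved together most closely (r = 0.82, rho = 0.77, permutation p = 3e-05, adjusted p = 0.00045), although their times of peak differed. CRD1 and CAO1 had an r of 0.78 (rho = 0.56, permutation p = 0.00046, adjusted p = 0.00225), which was 0.48 without dawn replicates 2 and 4, and PORA and PORB had 0.68 (rho = 0.61, permutation p = 0.00055, adjusted p = 0.00225). PORA and DVR gave 0.14 (rho = 0.12, permutation p = 0.498). YGL1 passed with DVR alone (r = 0.49, rho = 0.52, permutation p = 0.0206, adjusted p = 0.0386).

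Over all 32 libraries, with time of day included, the log2 level of CRD1 had an r of 0.97 with CAO1, which ranked 7 among the 25765 other genes by likeness to CRD1. The gene most like CAO1 was GLK1 (r = 0.98), a GOLDEN2-like transcription factor known to promote chloroplast development, and the gene most like CRD1 was OS11G0127800 (r = 0.99). Such likeness was widely shared, since 194 genes had an r of at least 0.9 with CAO1 and 225 with CRD1. The clock gene LHY had 0.89 with CAO1 and 0.91 with CRD1. DVR and PORB had an r of 0.87, with PORB ranked 24 for DVR, and PORA and PORB had 0.87, with PORB ranked 8 for PORA. The most like genes were OS11G0215100 for DVR (r = 0.94), OS04G0457000 for PORA (0.91), OS11G0595200 for PORB (0.95) and OS10G0394100 for YGL1 (0.90). YGL1 was negatively related to each of the other 5, from -0.43 with CRD1 to -0.77 with PORA. These values describe 32 libraries that share 8 times and carry no test.

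The rest of the pathway was read from lists of 12 earlier genes, 4 genes of tail synthesis and the chlorophyll a and b cycle, 5 breakdown genes and 2 regulators. Over the 8 times, 11 of 12 earlier genes, 2 of the 3 tested tail and cycle genes, 4 of 5 breakdown genes and both regulators were called, against 42.1% of all genes. Night against day, where 26.4% of all genes were called, 5 of the earlier genes were lower and 1 higher, 1 tail or cycle gene was lower and 1 higher, 4 breakdown genes were lower and none higher, and 1 regulator was lower. CHLH, the porphyrin-binding subunit of magnesium chelatase, was lower at night by -1.77 ± 0.16 on the log2 scale (adjusted p = 3.06e-09) and at dusk than at dawn by -2.64 ± 0.29 (adjusted p = 8.08e-08), with a fitted peak at 2.67 h. HEMB, aminolevulinate dehydratase, did not pass between night and day (0.06 ± 0.09), was lower at dusk than at dawn by -2.20 ± 0.16 (adjusted p = 2.01e-11) and peaked at 0.14 h. GSA, which forms 5-aminolevulinic acid, was higher at dusk than at dawn by 0.80 ± 0.13 (adjusted p = 4.10e-05) and peaked at 11.7 h.

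CHLP, the reductase that makes the phytyl tail donor, had a course like that of CRD1 and CAO1, with a fitted peak at 2.44 h, a night against day difference of -1.29 ± 0.13 (adjusted p = 1.43e-08) and a dusk against dawn difference of -2.31 ± 0.23 (adjusted p = 1.38e-08). GLK1 peaked at 1.68 h and differed by -3.55 ± 0.34 between dusk and dawn (adjusted p = 8.63e-09), and GLK2 peaked at 1.23 h and differed by -1.70 ± 0.24 (adjusted p = 3.67e-06). Of the breakdown genes, NYC1, a chlorophyll b reductase, peaked at 9.92 h and was lower at night by -0.53 ± 0.10 (adjusted p = 0.000304), and SGR, the magnesium dechelatase of leaf senescence, was lower at night by -0.67 ± 0.13 (adjusted p = 0.000370). LHY, a morning gene of the circadian clock given as a time reference, peaked at 0.01 h. The fitted peaks of the regulators, CHLP and CHLH lay between those of LHY and PORA, as did those of CRD1 and CAO1. The peak of NYC1 (SE 0.61 h) lay before the 12 h set for dusk. The peak of GSA (SE 0.59 h) lay within its SE of that hour and is not placed before or after dusk. The other 3 called breakdown genes peaked earlier than NYC1, SGR at 7.46 h and 2 whose names were not checked at 2.98 and 3.07 h.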

How the data were processed

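Poly(A) RNA of 32 panicle libraries was sequenced from a directional kit, per the labels' protocols. The submitters' processing notes name TopHat2 (version 2), HTSeq (0.6.0) and the genome build IRGSP-1.0; no source used here gives the strand setting or the treatment of reads with several matches. The authors deposited 1 table of raw counts and 1 table of CPM, whose values equal each count divided by its library total (largest difference 5.0e-07). All sample columns were mapped by their labels; 3564 of 37829 rows were at 0 in every library. No replicate pair agreed within sampling noise, the lowest chi-square per degree of freedom being 10.7.

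Counts were fitted with edgeR 4.0.16 (R 4.3.3), with TMM scaling, filterByExpr, 1 mean per time, quasi-likelihood tests and a threshold of 0.05 on p adjusted by Benjamini-Hochberg over 25766 genes. The scripts were tested on simulated data. Peak times come from that fit and their SE from least squares on log2 CPM. Log2 CPM used a prior count of 2, and ratios a pseudocount of 0.5 CPM. DESeq2 1.42.0, limma 3.58.1 on the CPM and other settings were alternatives. The members and gene lists were chosen with earlier results of these data known. Other pathway genes were named by rule: up to 4 per list with the lowest adjusted p over the 8 times, where the RefSeq gene table (ASM3414082v1, used for names and gene order only) placed the symbol; it placed 31 of 49 listed genes, with 5 of the 6 members. Promoter and protein sequences were not used here.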

Additional observations from a re-analysis of the deposited data

Results flagged for a closer look

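In 6 of 48 groups of 4 libraries (6 genes at 8 times), a library stood apart from the other 3 by Dixon's test, where chance alone flags about 1 in 20. At 3.5 h, replicate 4 was low for CRD1 (425 CPM, others 738 to 768), for PORB (123 CPM, others 270.0 to 299) and for CAO1 (307 CPM, others 396 to 413), so 3 of the 6 come from the same library. Replicate 3 was low for YGL1 at 3.5 h (80.4 CPM, others 97.0 to 99.8). Replicate 1 was high for CRD1 at dusk (118 CPM, others 102 to 103) and for PORB at 21 h (112 CPM, others 73.7 to 79.1).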

How the results depend on the processing

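Of 2826 values of the 6 genes under alternatives, 2781 kept their direction and side of the threshold, 23 lost a call, 15 gained one and 7 reversed. All 6 genes passed over the 8 times, in the 24 h wave and between night and day under every alternative run. Whether replicate numbers pair the libraries is not settled, since the labels do not say what a number marks. The mean r was 0.0665 between libraries of the same number (lowest -0.825) and -0.0184 between libraries of other numbers. Of 32 libraries, 11 correlated best with their own number. With the replicate number as a block, genes called from 10.5 h to dusk went from 48 to 76. PORA then passed from 7 to 10.5 h (-1.36, adjusted p = 0.0247), which made 3 of the 6. With library totals alone, calls were gained by DVR between dusk and dawn (0.66), PORB from 7 to 10.5 h (-0.73), YGL1 from 17.5 to 21 h (-0.48) and CRD1 from dawn to 3.5 h (-0.77).

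All reversed values came from differences that were not called: CAO1 between dawn and 21 h without dawn replicate 2 (-0.0438; -0.0438 to 0.51 over single libraries left out); DVR from 14 to 17.5 h without 14 h replicate 2 (-0.0605; -0.0605 to 0.21); PORB from 17.5 to 21 h with library totals alone (-0.10) and limma on the CPM (-0.10); from 3.5 to 7 h, PORA without 3.5 h replicate 3 (0.15; -0.60 to 0.15), PORB without 3.5 h replicate 4 (-0.10; -0.10 to 0.24) and YGL1 without 7 h replicate 2 (-0.00462; to 0.13). The night against day ratio of DVR to CAO1 was 0.0272 with a pseudocount of 2 CPM, and 0.08, 0.10, 0.08 and 0.06 without 10.5 h replicates 1 to 4, and 0.11, 0.13, 0.15 and 0.15 without 21 h replicates 1 to 4 (-0.24 to 0.15 over all single libraries left out).

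Counts of all genes called were least stable between neighbouring times. DESeq2 called 27 genes between dawn and 21 h, 328 from 10.5 h to dusk (with 1 of the 6 genes), 327 from dusk to 14 h and 1284 from 14 to 17.5 h, where edgeR called 0, 48, 161 and 354. From 10.5 h to dusk, library totals gave 27 and limma 27. Leaving out the 3 libraries of lowest correlation, chosen after seeing the data, gave 8 between dawn and 21 h and 21 from 10.5 h to dusk. It gave 1007 from 14 to 17.5 h (with 2 of the 6 genes), 4901 from 17.5 to 21 h and 3652 from dawn to 3.5 h (with 5 of the 6 genes). Leaving out each replicate in turn gave 0 to 33 genes between dawn and 21 h, 1970 to 3587 from dawn to 3.5 h (2 to 5 of the 6 genes), 1166 to 2665 from 3.5 to 7 h, 13 to 244 from 10.5 h to dusk, 82 to 207 from dusk to 14 h, 100 to 512 from 14 to 17.5 h and 1412 to 3385 from 17.5 to 21 h. The dusk against dawn ratios passed in 0 to 11 of 15 pairs. The count of 0 came from leaving out a dawn library, so the number of passing pairs depended on single libraries. At the smallest p that this test allows, pairs pass the adjustment only when many of the 15 reach it together. The count can therefore drop to 0 when few pairs leave that p, and does not show that every ratio changed. Scaling by library totals shifted the median of all genes by between -0.20 (17.5 to 21 h) and 0.13 (3.5 to 7 h) on the log2 scale.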
